A study of Mus musculus with 6 samples.

Results

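The 10 receptor tyrosine kinase genes described here are Fgfr1, Fgfr2, Igf1r, Insr, Egfr, Erbb2, Erbb3, Erbb4, Ntrk2 and Met. They were chosen by gene symbol as growth factor receptors of oligodendrocyte progenitor cells (OPCs), and all 10 were among the 24421 genes listed in the count tables and among the 15906 genes tested. RNA-seq had been run on 6 mouse libraries of cells labelled as OPCs, progenitors that divide and mature into the oligodendrocytes that make myelin. The knockout group held 3 libraries of genotype Prrc2bf/f; Olig2-Cre, and the control group 3 libraries of genotype Prrc2bf/f without Cre. All 6 came from C57BL/6J pups at postnatal day 4, and both groups carried floxed alleles of Prrc2b, which encodes an RNA-binding protein. Olig2-Cre acts wherever Olig2 is or has been expressed, in the oligodendrocyte lineage and in some neural progenitors. No library had the Cre without floxed Prrc2b, so an effect of the Cre or its allele cannot be told apart from one of Prrc2b loss. Per the labels' protocols, cortical cells went over a GalC plate and an O4 plate before culture in medium for proliferation, whereas the series' design text names brain tissue. The labels do not say whether replicates were separate animals or how many pups were pooled. The spread behind each p-value is therefore that between libraries and may be technical. Where the replicate number is fitted as a block, it is the spread of the differences between same-numbered libraries.

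Receptor tyrosine kinases bind a growth factor outside the cell, pair up and phosphorylate each other inside it, which recruits adaptor proteins and starts the RAS-MAPK and PI3K-AKT cascades. In the oligodendrocyte lineage fibroblast growth factor promotes progenitor division, insulin and insulin-like growth factor promote survival and growth, neuregulins act through ErbB receptors, and brain-derived neurotrophic factor acts through the Ntrk2 product TrkB. The culture medium supplied several ligands directly, with basic FGF at 10 ng/ml, PDGF-AA at 10 ng/ml, CNTF at 10 ng/ml, NT3 at 1 ng/ml and insulin at 5 μg/ml. NT3 signals mainly through the Ntrk3 product TrkC, and CNTF through a cytokine receptor that is no receptor tyrosine kinase.

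The stretches upstream of 4 of these genes are shown because, as given below, Ntrk2, Fgfr2 and Erbb2 were lower in the libraries numbered 2 of both genotypes while Erbb4 was higher there. Each is the 250 bases before the RefSeq transcription start (build GRCm38.p6), written 5′ to 3′ on the gene's strand. Capitals mark E-boxes (CANNTG, searched on both strands), the motif class bound by basic helix-loop-helix factors, to which Olig2 belongs. Ntrk2 lies on the plus strand of chromosome 13 and this window is chr13:58806319-58806568. Fgfr2 lies on the minus strand, window chr7:130266809-130267058. Erbb2 lies on the plus strand, window chr11:98412234-98412483. Erbb4 lies on the minus strand, window chr1:69108060-69108309.
Ntrk2: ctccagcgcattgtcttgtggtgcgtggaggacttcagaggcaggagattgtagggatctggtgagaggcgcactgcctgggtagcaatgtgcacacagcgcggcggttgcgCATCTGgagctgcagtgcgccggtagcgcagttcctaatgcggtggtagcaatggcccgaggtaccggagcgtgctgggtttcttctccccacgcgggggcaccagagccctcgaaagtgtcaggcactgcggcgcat
Fgfr2: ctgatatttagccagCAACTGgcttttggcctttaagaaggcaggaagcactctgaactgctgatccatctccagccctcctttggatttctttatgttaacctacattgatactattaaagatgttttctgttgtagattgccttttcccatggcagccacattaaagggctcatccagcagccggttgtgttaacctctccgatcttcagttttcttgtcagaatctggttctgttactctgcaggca
Erbb2: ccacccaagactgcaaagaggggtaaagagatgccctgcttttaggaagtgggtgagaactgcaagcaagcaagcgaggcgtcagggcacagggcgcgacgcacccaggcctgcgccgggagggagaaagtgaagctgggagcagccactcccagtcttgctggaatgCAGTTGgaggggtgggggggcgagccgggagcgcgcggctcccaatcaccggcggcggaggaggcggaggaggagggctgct
Erbb4: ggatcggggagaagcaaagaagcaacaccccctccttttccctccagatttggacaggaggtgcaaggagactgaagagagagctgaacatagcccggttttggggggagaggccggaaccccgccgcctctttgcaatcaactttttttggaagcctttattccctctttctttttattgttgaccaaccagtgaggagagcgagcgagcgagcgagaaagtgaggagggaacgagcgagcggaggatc
An E-box stood once in the windows of Ntrk2 (CATCTG), Fgfr2 (CAACTG) and Erbb2 (CAGTTG), and no match was found in that of Erbb4. Of the 7 members with an entry in the promoter table, 4 held an E-box, the other being Met with CACGTG, while 66.2% of the 32851 entries in the table did. The SOX-type motif ACAATG was found in 1 of the 7 windows, that of Ntrk2, against 10.7% of all entries, and ACAAAG in 0 of 7, against 16.5%. CG dinucleotides numbered 2 before Fgfr2, 12 before Erbb4, 16 before Erbb2 and 19 before Ntrk2, with a median of 6 over the table. A match is a description of the letters only, and binding was not measured. Fgfr1, Insr and Erbb3 had no entry in the promoter table, so Fgfr1 and Erbb3, also lower in the libraries numbered 2, have no window here.

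Gene counts summed to between 26015604 and 28114968 read pairs per library. Prrc2b, the targeted gene, stood at 649, 824 and 758 CPM (read counts scaled to a common library size, normalised by TMM) in knockout libraries and at 933, 1111 and 926 CPM in control libraries. Its log2 fold change (knockout over control, as throughout) was -0.41 (SE 0.13; adjusted p = 1.00, edgeR), and -0.41 (SE 0.06; adjusted p = 0.00688, edgeR) with the replicate number fitted as a block. Every one of the 16 OPC markers had counts in all libraries, and they summed to 3169 to 6350 CPM in knockout and 3288 to 5312 CPM in control libraries. The libraries also held transcripts of other cells. The 19 neuronal markers summed to 4207 to 5997 CPM in knockout and 4811 to 6592 CPM in control libraries, and the 12 astrocyte markers to 1842 to 3290 and 1567 to 2786 CPM. The 13 endothelial markers summed to 54.6 to 371 CPM in knockout and 23.6 to 115 CPM in control libraries. In bulk samples fewer cells of a type and less RNA per cell cannot be told apart. Pairs assigned to no gene were 20.8% of the total in knockout and 19.7% in control libraries on average. They ranged from 20.4% to 21.3% in knockout and from 18.9% to 20.1% in control libraries, without overlap. Pairs of low alignment quality (3.60% to 4.09% against 2.91% to 3.29%) and unaligned pairs (1.16% to 1.39% against 0.962% to 1.14%) were also higher in every knockout library. The cause of these library differences, which run with genotype, was not tested.

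None of the 10 receptor genes passed the test between genotypes. Without the block edgeR called 0 of 10 members and 0% of all 15906 genes at an adjusted p under 0.05, with 0 members and 274 genes at an unadjusted p under 0.05. Other tools without the block called 0 of 10 members, and over all genes 20 with DESeq2 and 0 with limma-voom. With the replicate block, which compares libraries of the same number, edgeR again called 0 of 10 members, against 3.8% of all genes. At an unadjusted p under 0.05 the blocked fit had 1 of 10 members, Ntrk2, and 2893 of the 15906 genes. Without the block the fold intervals were wide, from 0.839 to 1.14 for Igf1r but from 0.478 to 2.86 for Erbb3, and changes inside them could have gone uncalled. In 0 of 10 members did all knockout libraries lie on 1 side of all control libraries, as they did in 6.34% of all genes (2.75% higher and 3.6% lower in the knockout). The median log2 fold change over the members was 0.05 without the block and 0.06 with it, against 0.00 over all genes in both. Summed over the 10 genes, receptor transcripts came to 1698 ± 297 CPM in knockout and 1631 ± 245 CPM in control libraries (SD, n = 3 each). The intervals below are 95% intervals of the blocked edgeR fit unless said otherwise.

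**Figure D1:**
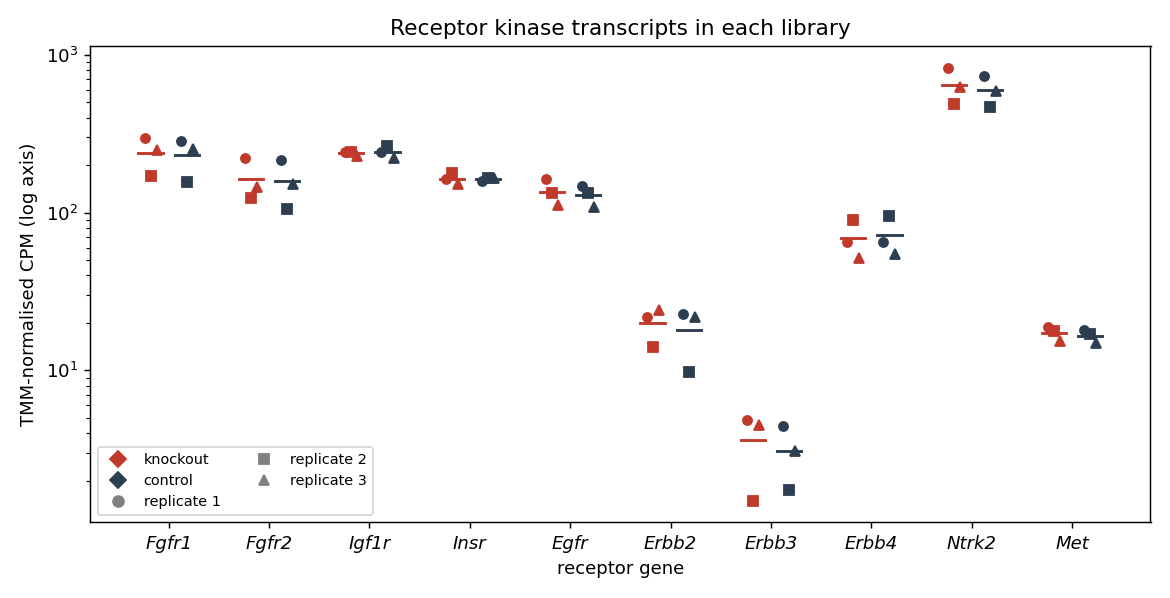
Level of each receptor transcript in every library, in TMM-normalised CPM on a log axis, with knockout libraries in red left of control libraries in dark blue. Marker shape gives the replicate number and the bar the group mean. The groups overlap for all 10 genes, and libraries numbered 2 lie lowest for Fgfr1, Fgfr2, Erbb2, Erbb3 and Ntrk2 and highest for Erbb4.

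The FGF receptors Fgfr1 and Fgfr2 bind basic FGF, a mitogen of OPCs. Fgfr1 (ENSMUSG00000031565.18, chromosome 8, 25513654 to 25575718, plus strand, GRCm38, as for the other members) stood at 299, 170 and 248 CPM in knockout libraries 1, 2 and 3 and at 286, 155 and 252 CPM in control libraries 1, 2 and 3. In both genotypes the library numbered 2 was far below the others, and the groups overlapped almost entirely. Fgfr1's blocked log2 fold change was 0.06 (SE 0.04, interval -0.03 to 0.14; adjusted p = 0.519, edgeR), a fold of 1.04 with an interval of 0.977 to 1.10. Without the block the interval was wider, from -0.63 to 0.72. Antisense exons of Gm16159 cover 1.66% of Fgfr1 exon bases.

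Fgfr2 (ENSMUSG00000030849.18, chromosome 7, 130162451 to 133123350, minus strand) stood at 221, 123 and 145 CPM in knockout libraries 1 to 3 and at 216, 106 and 153 CPM in control libraries 1 to 3. Its knockout library was the higher in the pairs numbered 1 and 2 and the lower in the pair numbered 3. The blocked log2 fold change of Fgfr2 was 0.06 (SE 0.06, interval -0.07 to 0.18; adjusted p = 0.658, edgeR). The annotation places 3.04% of Fgfr2 exon bases in exons of Ctbp2 on the same strand, and its annotated span reaches far upstream of the RefSeq start used above. Counts per gene do not separate the splice forms that give FGF receptors their ligand preference.

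Igf1r and Insr, the receptors for insulin-like growth factors and insulin, were the steadiest members. Igf1r (ENSMUSG00000005533.10, chromosome 7, 67952827 to 68233668, plus strand) stood at 243, 242 and 229 CPM in knockout and at 243, 263 and 224 CPM in control libraries. Its highest library exceeded its lowest by a factor of 1.18. The blocked log2 fold change of Igf1r was -0.03 (SE 0.04, interval -0.12 to 0.06; adjusted p = 0.758, edgeR). Even without the block its interval, -0.25 to 0.19, was narrower than that of any other member except Insr.

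Insr (ENSMUSG00000005534.10, chromosome 8, 3122061 to 3279617, minus strand) stood at 164, 178 and 152 CPM in knockout and at 159, 167 and 165 CPM in control libraries, a factor of 1.17 between the highest and the lowest. Its blocked log2 fold change was 0.01 (SE 0.05, interval -0.10 to 0.12; adjusted p = 0.971, edgeR). Knockout libraries of Insr lay above control in pairs 1 and 2 and below it in pair 3.

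The ErbB family binds epidermal growth factor relatives and neuregulins. Egfr (ENSMUSG00000020122.16, chromosome 11, 16752203 to 16918158, plus strand) stood at 163, 133 and 112 CPM in knockout and at 148, 133 and 109 CPM in control libraries. The knockout library was the higher in each pair, by 0.13, 0.0049 and 0.04 on the log2 scale for numbers 1, 2 and 3. Egfr's blocked log2 fold change was 0.06 (SE 0.05, interval -0.04 to 0.17; adjusted p = 0.548, edgeR).

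Erbb2 encodes the family member with no known ligand of its own, which signals by pairing with other ErbB receptors. Erbb2 (ENSMUSG00000062312.5, chromosome 11, 98412470 to 98437716, plus strand) stood at 21.8, 14.1 and 24.1 CPM in knockout and at 22.8, 9.81 and 21.8 CPM in control libraries. Its libraries numbered 2 were the lowest, with 397 counts in the knockout and 257 in the control. That pair differed most, with the knockout 0.53 higher on the log2 scale, against -0.06 and 0.15 in pairs 1 and 3. The blocked log2 fold change of Erbb2 was 0.19 (SE 0.12, interval -0.08 to 0.47; adjusted p = 0.471, edgeR), so a fold of up to 1.38 lies within the interval.

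Erbb3 encodes a neuregulin receptor whose own kinase is nearly inactive. Erbb3 (ENSMUSG00000018166.8, chromosome 10, 128567523 to 128589652, minus strand) was the scarcest member, at 4.84, 1.50 and 4.50 CPM in knockout and 4.43, 1.76 and 3.08 CPM in control libraries. Its counts were 133, 42 and 119 in knockout and 120, 46 and 87 in control libraries, and the pairs did not share a direction. The blocked log2 fold change of 0.18 (SE 0.24; adjusted p = 0.758, edgeR) had an interval of -0.36 to 0.71. Folds from 0.780 to 1.64 lie within that interval.

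Erbb4 encodes a neuregulin receptor that in the cortex is best known from inhibitory neurons. Erbb4 (ENSMUSG00000062209.15, chromosome 1, 68032186 to 69108059, minus strand) stood at 65.0, 90.3 and 51.9 CPM in knockout and at 65.5, 94.9 and 54.6 CPM in control libraries. It was the only member lower in the knockout library of all 3 pairs, with log2 differences of -0.01, -0.07 and -0.07, as were 20.9% of all genes. Erbb4's blocked log2 fold change was -0.05 (SE 0.06, interval -0.18 to 0.07; adjusted p = 0.685, edgeR). Neuronal markers were also lower in the knockout library of each pair, with sums of 4273, 5997 and 4207 CPM in knockout and 4921, 6592 and 4811 CPM in control libraries. Of these 19 markers 5 fell with the block and 0 rose, where 2.23% of all genes fell and 1.57% rose. The part of neuronal cells in the Erbb4 values was not tested.

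Ntrk2 encodes TrkB, the receptor for brain-derived neurotrophic factor, which occurs with a kinase domain and, in astrocytes above all, in a truncated form without it. Ntrk2 (ENSMUSG00000055254.15, chromosome 13, 58806569 to 59133970, plus strand) stood at 831, 491 and 621 CPM in knockout and at 732, 467 and 587 CPM in control libraries. Within each pair the knockout library was the higher, by 0.18, 0.07 and 0.08 on the log2 scale, and yet the groups overlapped. Its blocked log2 fold change was 0.11 (SE 0.04, interval 0.01 to 0.21), and its p was 0.0317 before and 0.221 after adjustment by edgeR. Over the 10 fits with the block, Ntrk2's adjusted p ranged from 0.0851 with limma-voom to 0.601 without the pair numbered 1. Astrocyte markers were higher in the knockout library of each pair too, with sums of 3290, 1842 and 2766 CPM in knockout and 2786, 1567 and 2460 CPM in control libraries 1 to 3. All 12 had counts in every library. With the block 4 of them rose and 0 fell, where 1.57% of all genes rose and 2.23% fell. The part of astrocytes in the Ntrk2 values was not tested. Counts per gene do not separate the full-length from the truncated form.

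Met, the receptor for hepatocyte growth factor, completes the set. Met (ENSMUSG00000009376.15, chromosome 6, 17463800 to 17573980, plus strand) stood at 18.8, 17.8 and 15.4 CPM in knockout and at 18.1, 16.9 and 14.9 CPM in control libraries. The knockout library of Met was the higher in each pair, by 0.06, 0.07 and 0.05 on the log2 scale. Its blocked log2 fold change was 0.06 (SE 0.10, interval -0.16 to 0.28; adjusted p = 0.807, edgeR). With Egfr and Ntrk2 that made 3 of 10 members higher in all 3 pairs, against 19.6% of all genes.

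**Figure D2:**
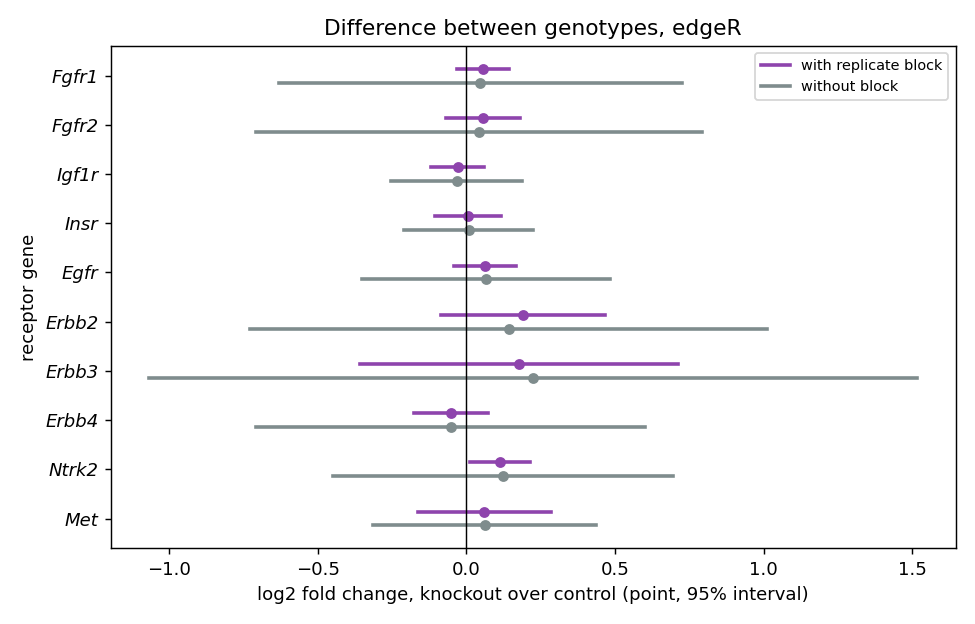
Log2 fold change of each receptor gene, knockout over control, from edgeR with the replicate block (purple) and without it (grey). Points are estimates and lines 95% intervals. All estimates lie between -0.05 and 0.22, and only the blocked interval of Ntrk2, 0.01 to 0.21, lies to 1 side of 0, before adjustment over all genes, as is the case for 2893 of 15906 genes at an unadjusted p under 0.05.

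Levels were compared between members per kilobase of annotated exon. Ntrk2 was the most abundant and above Fgfr1 in 6 of 6 libraries, at 33.6 ± 8.88 CPM per kilobase in knockout and 30.9 ± 6.89 in control libraries (SD, n = 3 each), followed by Fgfr1 at 24.2 ± 6.57 and 23.4 ± 6.85. Fgfr2 (15.8 ± 4.98 and 15.3 ± 5.36) and Igf1r (14.2 ± 0.475 and 14.5 ± 1.17) did not differ beyond their spread, Fgfr2 being the higher in 4 of 6 libraries. Nor did Insr (11.96 ± 0.948 and 11.9 ± 0.283) and Egfr (12.02 ± 2.23 and 11.5 ± 1.75), both of which lay next below Igf1r, and Igf1r was above Insr in 6 of 6 libraries. Next lay Erbb4 at 5.59 ± 1.58 and 5.80 ± 1.69 CPM per kilobase, then Erbb2 at 3.85 ± 1.01 and 3.48 ± 1.39, which was below Erbb4 in 5 of 6 libraries. Met followed at 2.26 ± 0.228 and 2.16 ± 0.213, and Erbb3 at 0.600 ± 0.306 and 0.513 ± 0.222, below Met in 6 of 6 libraries. Divided by coding length instead, the same counts gave the same order except for Fgfr2 and Igf1r. These stood at 58.1 and 57.9 CPM per kilobase of coding length in knockout and at 56.4 and 59.2 in control libraries. The counts were of whole genes, so these values are not levels measured over coding sequence. Both lengths count all annotated isoforms of a gene, which need not be those expressed.

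Most members varied with the replicate number in the same way in both genotypes. Number 2 libraries had 0.600 of the mean Fgfr1 level of numbers 1 and 3 (genotypes averaged), 0.623 for Fgfr2, 0.528 for Erbb2, 0.386 for Erbb3 and 0.691 for Ntrk2. For these 5 genes both libraries numbered 2 lay below all 4 others. Erbb4 showed the opposite, at 1.56 times the level of the other numbers, and both of its number 2 libraries lay above all others. Igf1r (1.08), Insr (1.08), Egfr (1.00) and Met (1.03) kept nearly the same level in number 2. Egfr and Met instead had their highest level in both libraries numbered 1 and their lowest in both numbered 3. What a number marks is not given in the labels, and these contrasts are a description with no test.

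Marker lists differed by number as well. In number 2 libraries the OPC markers summed to 0.620 and the astrocyte markers to 0.603 of their level in the other numbers, the neuronal markers to 1.38 times and the microglial and macrophage markers to 2.53 times. Endothelial markers summed to 0.221, pericyte and fibroblast markers to 0.235 and ependymal and choroid plexus markers to 0.386 of their level in the other numbers. The pericyte and fibroblast and the ependymal and choroid plexus sums were by far highest in number 3 of both genotypes. Microglial and macrophage sums were by far lowest in number 1, at 34.7 CPM in knockout and 35.9 CPM in control. Mature oligodendrocyte markers averaged 1.74 times in number 2, but that number was highest in the control only. Their sums were 803, 528 and 306 CPM in knockout and 363, 982 and 259 CPM in control libraries 1 to 3. Pdgfra, the PDGF receptor by which OPCs are usually recognised, followed the same pattern as Fgfr1, at 396, 200 and 366 CPM in knockout libraries 1 to 3 and 382, 182 and 344 CPM in control libraries 1 to 3. Whether the composition of the cultures set the receptor levels was not tested.

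**Figure D3:**
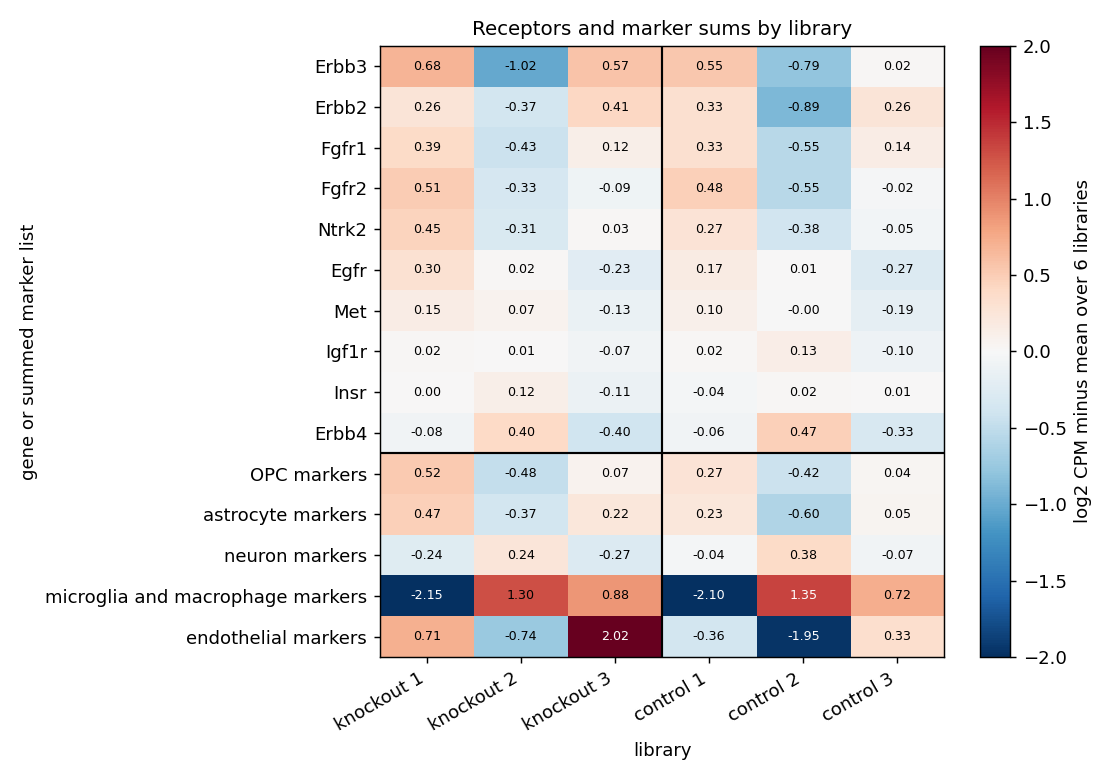
Log2 CPM of each receptor gene (above the line) and of summed marker lists (below it) in each library, as the difference from the mean over the 6 libraries, with knockout libraries left of control libraries. Colour is limited to ±2. Fgfr1, Fgfr2, Erbb2, Erbb3 and Ntrk2 are low in libraries numbered 2 of both genotypes, as are OPC, astrocyte and endothelial markers, while Erbb4 and neuronal markers are high there.

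Likeness of pattern was measured as the root mean square difference of log2 CPM over the 6 libraries after centring each gene. The genes compared were 10302 with a mean of at least 10 CPM, leaving out predicted models (Gm and Rik symbols). The nearest were Trip6 (0.03) and Kif13a (0.04) for Fgfr1, Lppr5 (0.07) and Prrx1 (0.08) for Fgfr2, and Slc22a23 and Usp6nl (0.04 each) for Ntrk2. For Igf1r they were Golga3 and Srrm1 (0.02 each), for Insr Mtmr2 and Ankle2 (0.02 each), for Egfr Suv39h1 (0.02) and Actl6a (0.03), and for Met Zfp410 (0.02) and Ccdc181 (0.03). Erbb2 was nearest to Slc9a3r1 (0.06) and Hopx (0.07), Erbb3 to Sertad1 (0.11) and Arid5a (0.15), and Erbb4 to Klf12 and Elmo1 (0.04 each). Among the members themselves Fgfr2 and Ntrk2 lay nearest to each other, at 0.12, where the root mean square deviation of each from its own mean was 0.39 and 0.29. Egfr and Met were also nearest to each other, at 0.09, against own deviations of 0.20 and 0.12. Igf1r and Insr lay 0.08 apart, which is more than either deviated from its own mean (0.07 each), so their closeness reflects levels that varied little rather than a like pattern. Fgfr1 was nearest to Ntrk2 (0.13), Erbb2 to Fgfr1 (0.19), Erbb4 to Igf1r (0.27) and Erbb3 to Fgfr1 (0.34).

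Of 10 other receptor kinases of these families, 8 were tested and 0 passed in either fit, where 3.8% of all genes passed with the block. Their blocked median was 0.08. Fgfr3, an FGF receptor of astrocytes and progenitors that is also 1 of the 12 astrocyte markers, stood at 184, 108 and 147 CPM in knockout and 162, 94.8 and 154 CPM in control libraries (blocked log2 fold change 0.10, SE 0.06; adjusted p = 0.422, edgeR). Pdgfra had a blocked log2 fold change of 0.09 (SE 0.04; adjusted p = 0.222, edgeR). Ntrk3, encoding the NT3 receptor, averaged 89.8 ± 25.9 CPM in knockout and 87.3 ± 34.6 CPM in control libraries (SD, n = 3 each).

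Of 30 genes listed by ligand family, 24 were tested and 0 passed without the block. They include Fgf11, Fgf12, Fgf13 and Fgf14, which encode relatives of FGF inside the cell and not secreted ligands of these receptors. With the block 2 of the 24 rose, 0 fell and 22 did not pass, where 1.57% of all genes rose and 2.23% fell. Hbegf, which encodes an Egfr and Erbb4 ligand, stood at 47.7, 22.9 and 43.1 CPM in knockout and 38.5, 14.9 and 26.0 CPM in control libraries, higher in the knockout library of each pair while the groups overlapped. Hbegf's blocked log2 fold change was 0.55 (SE 0.10; adjusted p = 0.0205, edgeR). Igf2, a growth factor of meninges and vessels that binds the Igf1r and Insr products, stood at 114, 77.3 and 580 CPM in knockout and 101, 47.4 and 354 CPM in control libraries. Its libraries numbered 3 were the highest in both genotypes, and its blocked log2 fold change was 0.53 (SE 0.09; adjusted p = 0.0158, edgeR). Igf2 lost the call with DESeq2 (adjusted p = 0.0567) and without the pair numbered 3 (0.107), and Hbegf without the pair numbered 3 (0.110). Tgfa, an Egfr ligand, averaged 68.2 CPM in knockout and 64.0 CPM in control libraries. Pericyte and fibroblast markers, of which 2 of 12 rose with the block, 0 fell and 10 did not pass, had sums of 263, 168 and 1159 CPM in knockout and 253, 116 and 747 CPM in control libraries, likewise highest in number 3, and all 12 had counts in every library. The part of those cells in the Igf2 values was not tested.

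Of 9 genes for IGF binding proteins, their subunit Igfals and the clearing receptor Igf2r, 1 rose with the block, 0 fell and 8 did not pass, against the same shares of all genes. Igfbp7, made by vessel cells among others, stood at 9.83, 3.60 and 36.5 CPM in knockout and 4.50, 2.71 and 21.4 CPM in control libraries, with a blocked log2 fold change of 0.79 (SE 0.15; adjusted p = 0.0237, edgeR). It lost the call without the pair numbered 1 (adjusted p = 0.0565) or 3 (0.219). Endothelial markers summed to 149, 54.6 and 371 CPM in knockout and 71.1, 23.6 and 115 CPM in control libraries, with 10 of 13 rising, and their part in the Igfbp7 values was not tested. Igfbp5 (213 ± 25.9 CPM in knockout and 194 ± 32.8 CPM in control libraries, SD, n = 3 each), the most abundant of the list, did not pass (edgeR adjusted p = 0.187).

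Of 21 co-receptors and modulators that act at the receptor, 2 rose, 2 fell and 17 did not pass with the block, against 1.57% of all genes higher and 2.23% lower, and 0 passed without it. Gpc1 and Gpc2 encode glypicans, heparan sulphate proteoglycans that hold FGF at the cell surface. Gpc2 fell, at 82.5, 125 and 124 CPM in knockout and 113, 145 and 151 CPM in control libraries (blocked log2 fold change -0.32, SE 0.06; adjusted p = 0.0185, edgeR). Gpc1 fell by less, at 199, 235 and 161 CPM in knockout and 239, 263 and 178 CPM in control libraries (-0.19, SE 0.04; adjusted p = 0.0268, edgeR). In both genes each knockout library was below its same-numbered control. Sdc4, a syndecan that also carries heparan sulphate, rose, at 59.2, 59.0 and 122 CPM in knockout and 45.0, 49.4 and 88.1 CPM in control libraries (blocked log2 fold change 0.38, SE 0.06; adjusted p = 0.0149, edgeR). Lrig1, an inhibitor that promotes the breakdown of ErbB receptors, rose, at 168, 92.0 and 206 CPM in knockout and 138, 79.7 and 184 CPM in control libraries (0.22, SE 0.04; adjusted p = 0.0302, edgeR). All 4 lost the call when the pair numbered 3 was left out, with edgeR adjusted p from 0.0710 to 0.103. Gpc1 also lost it without pair 1 (0.100), with library totals (0.0519) and after GC correction (0.124, at -0.12), and Lrig1 without pair 1 (0.0952). Ependymal and choroid plexus markers, of which 7 of 10 rose, summed to 1044, 844 and 2835 CPM in knockout and 436, 363 and 1943 CPM in control libraries. The part of other cells in these 4 changes was not tested. Of the modulators that did not pass, Sdc3 averaged 434 CPM in knockout and 469 CPM in control libraries and Sort1 252 and 249 CPM.

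Adaptor genes, whose products link receptors to the cascades, gave 0 calls among 26 tested of 27 listed in either fit. With the block 3.8% of all genes were called. The blocked median of the adaptors was 0.00. The abundant adaptors Crkl, Crk and Gab1 had blocked log2 fold changes of 0.01, 0.01 and 0.04 (SE 0.04 each). Of 32 genes of the RAS-MAPK and PI3K-AKT cascades, 0 rose and 1 fell with the block and 31 did not pass. Over all genes 1.57% rose and 2.23% fell, so 1 fall in 32 is near the general share. The blocked median of the cascade genes was -0.01. Pik3r2, a regulatory subunit of PI3K, stood at 149, 169 and 134 CPM in knockout and 170, 199 and 153 CPM in control libraries, lower in the knockout library of each pair. The blocked change of Pik3r2 was -0.21 (SE 0.04; adjusted p = 0.0252, edgeR), but -0.06 (adjusted p = 0.546) after correction for transcript GC content, and it lost the call without the pair numbered 1 (0.0524), 2 (0.0692) or 3 (0.114). Akt1, encoding a kinase downstream of PI3K, stood at 274, 286 and 274 CPM in knockout and 315, 323 and 292 CPM in control libraries. These groups did not overlap, with the knockout lower, as was so for 3.6% of all genes. Akt1 did not pass (blocked log2 fold change -0.16, SE 0.04; adjusted p = 0.0514, edgeR).

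**Figure D4:**
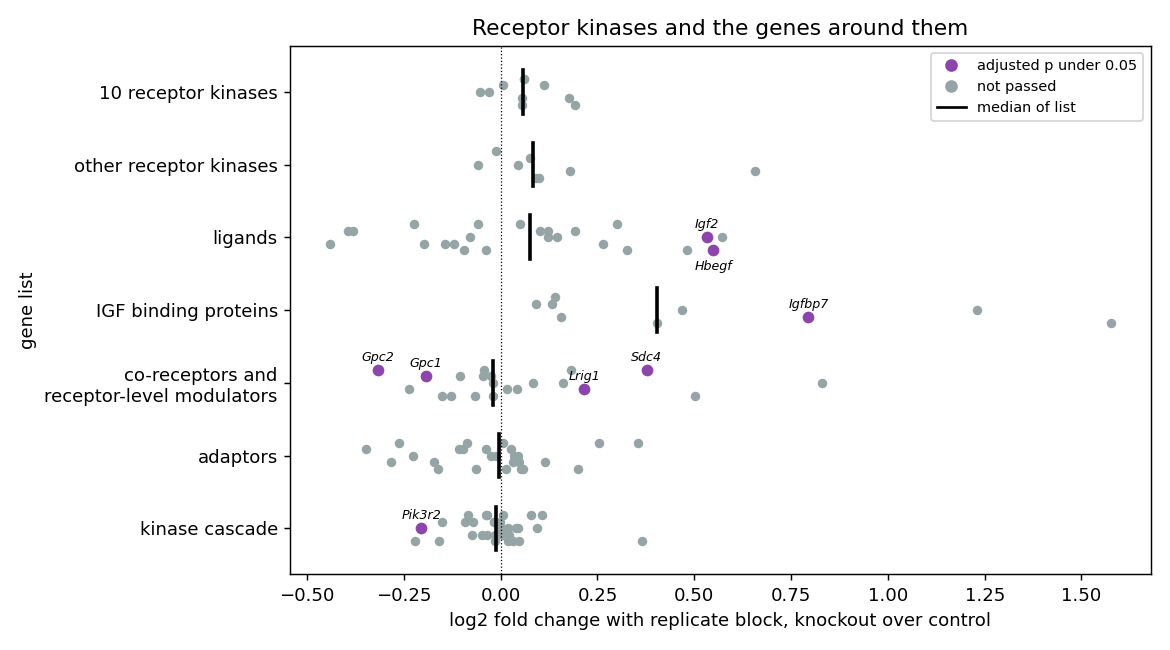
Blocked log2 fold change, knockout over control, of every tested gene in 7 lists. Listed are the 10 receptor kinases, other kinases of the same families, ligand families, IGF binding proteins, co-receptors and modulators, adaptors and cascade genes. Purple points passed an adjusted p under 0.05 over all genes, and black bars are list medians. The 10 receptors lie between -0.05 and 0.19 with 0 calls. In the other lists, with 8, 24, 9, 21, 26 and 32 genes tested in the order given, 8 genes passed. Over all genes 3.8% passed, so 0 of 10 does not set the receptors apart.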

How the data were processed

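Each deposited file gives raw counts, whole numbers of pairs for each gene symbol. The submitters' processing notes list the build mm10 and the tools DESeq2 1.26.0, HTSeq 0.12.4 and HISAT2 2.2.1, with no role stated. The annotation, strand setting and parameters used for counting, not given in the sources used here, leave values of overlapping genes uncertain. Closing entries that name no gene were left out (pairs in no gene 20.8% and 19.7%, ambiguous 1.45% and 1.46%, low alignment quality 3.83% and 3.11%, unaligned 1.25% and 1.03%, several alignments 3.41% and 3.46% of pairs in knockout and control libraries).

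Groups came from the labels' genotypes. Tests used edgeR 4.0.16 (R 4.3.3): its expression filter, TMM scaling and the quasi-likelihood F test, two-sided, with group as the only term, and adjusted by Benjamini-Hochberg over all 15906 genes. The call threshold was an adjusted p of 0.05. A second fit added the replicate number as a block, since deviations from group means correlated at 0.712, 0.682 and 0.654 between same-numbered libraries over all genes, which met the criterion for pairing (all above 0.1). Residual degrees of freedom were 4 without and 2 with the block. Intervals use edgeR's moderated degrees of freedom, with the SE taken from the F statistic. Alternatives were other scalings and filters, DESeq2 1.42.0, limma-voom (limma 3.58.1), a GC correction in 20 bins and left-out libraries. Their use on the pathway genes that passed was chosen after seeing the data. Lengths, coordinates and GC content came from GENCODE M21 (GRCm38), matched by symbol for 15332 tested genes. Replicates differed far beyond counting noise. The test was checked on simulated data. The members and all lists were chosen with earlier results of these data known. Named genes were all members, Prrc2b, Pdgfra, pathway genes called in either fit and, of each list, up to 3 abundant genes, and for likeness the 2 nearest. Akt1 and the genes under other observations were chosen after their values were seen.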

Additional observations from a re-analysis of the deposited data

How the results depend on the processing

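Over 23 alternatives (21 for Erbb3, which a mean of at least 5 CPM removes) 0 of 10 receptor genes were called. Over all genes the count without the block was 0, except 20 with DESeq2. No fit without the block called the targeted gene Prrc2b either, so their 0 calls of members say little. With the replicate block it was 604, and with the block 573 under DESeq2 size factors, 502 under library totals, 435 at a mean of at least 5 CPM, 671 with DESeq2, 712 with limma-voom, 453 after GC correction and 174 to 521 with a replicate number left out of both groups, 444 without number 1 and 174 without number 3. The share of rises was 250 of 604 with TMM and 271 of 502 with library totals. Without the block, the median log2 fold change over all genes was 0.0023 with TMM and 0.029 with library totals. The unblocked estimates of Igf1r (-0.03) and Insr (0.01) are about as small as that shift. Leaving out a library without the block turned the sign of every member in some setting, with log2 fold changes of -0.17 to 0.24 for Fgfr1, -0.24 to 0.33 for Fgfr2, -0.086 to 0.026 for Igf1r, -0.053 to 0.062 for Insr, -0.084 to 0.19 for Egfr, -0.16 to 0.34 for Erbb2, -0.058 to 0.59 for Erbb3, -0.30 to 0.20 for Erbb4, -0.10 to 0.30 for Ntrk2 and -0.010 to 0.14 for Met. This leaves unequal numbers in the groups. With the block and a pair left out, Fgfr2 reached -0.021, Igf1r 0.015, Insr -0.0075 and -0.039 and Erbb3 -0.025, and Insr was -0.023 with the block and GC correction. The cause was not tested. Erbb3 had the fewest counts, 42 to 133 per library.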

Other observations

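Of the IGF binding protein list, Igfbp1, a secreted protein of liver, stood at 1.35, 1.17 and 1.21 CPM in knockout and 0.997, 0.267 and 0.177 CPM in control libraries. These groups did not overlap, with the knockout higher, as was so for 2.75% of all genes. Igfbp1 did not pass (blocked log2 fold change 1.58, SE 0.54; adjusted p = 0.156, edgeR). Igfals, a liver-made partner of circulating IGF, stood at 1.06, 1.03 and 0.604 CPM in knockout and 0.258, 0.687 and 0.248 CPM in control libraries (1.23, SE 0.51; adjusted p = 0.239, edgeR). Both were chosen after their values were seen.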
